A study of Mus musculus with 16 samples.

Results

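The 8 RNA libraries described here came from cultured adult neural stem cells, and the comparison set replicates 1 and 2 of both genotypes (WT1, WT2, KO1 and KO2) against replicates 3 and 4 (WT3, WT4, KO3 and KO4), so that each side held 4 cultures. They are 8 of the 16 libraries in the series, and the other 8 are ribosome footprint libraries from the same lysates. Members were taken by replicate number alone and no measured value was used to choose them. The cells came from male mice of the FVB/N strain aged 8 to 10 weeks, either wild type (WT) or their Fmr1-/y littermates (KO, with a disrupted X-linked Fmr1 gene), and the dentate gyrus was the tissue dissected. The medium of all cultures held the growth factors EGF and FGF2 (20 ng/ml of each), the translation inhibitor cycloheximide was added for 10 min at 100 µg/ml before harvest, and cytoplasmic RNA was sequenced. Replicates are independent isolations per the labels, and nothing in the labels says what else set replicates 1-2 apart from replicates 3-4, so isolation, time in culture and any library batch cannot be told apart. The RNA comes from whole cultures, so fewer cells of a type and less RNA per cell cannot be told apart either.

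Adult neural stem cells of the hippocampus share many genes with astrocytes, and they move between a resting state and a dividing state. EGF and FGF2 keep them dividing in culture, while Notch and BMP signals are known for holding them back from division. Immediate early genes are switched on within minutes of a signal from factors already in the cell, and a division needs the replication machinery, new histones and new ribosomes in turn.

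Replicates 1-2 carried far more RNA of immediate early genes such as Fos, Nr4a1 and Egr2, more RNA of astrocyte genes such as Gfap, Apoe and Slc1a2, and less RNA of histone, DNA replication and ribosome genes. The retinoblastoma gene Rb1 and the kinase inhibitor gene Cdkn1b were also higher in replicates 1-2, and Ccne1 and Cdk2 were lower. The list that holds Rb1, Cdkn1b and Cdk2 had 4 of 20 tested genes higher, 2 lower and a median log2 fold change of 0.02. The estimated counts summed to between 5343042 and 6600023 reads per library, with 12489 to 13134 genes seen in each. Of 11097 genes tested with edgeR, 1457 were higher in replicates 1-2 (13.1%) and 1339 lower (12.1%) at an adjusted p under 0.05 (25.2% in either direction), and 901 and 435 of them differed by at least 1 on the log2 scale. The median log2 fold change over all genes tested was 0.03. The 4 values of each side did not overlap for 1618 genes higher in replicates 1-2 (14.6%) and for 1839 genes lower (16.6%).

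Libraries with the same replicate number deviated together, so a second fit kept the number as a random block, and its adjusted p is printed after the words "with the block" where a gene that passed the first fit missed 0.05 in it. The words "lost without" name each library whose omission took a gene's adjusted p to 0.05 or more, with the highest p over those omissions. The block fit called 713 genes higher (6.43%) and 612 lower (5.52%), of which 712 and 612 were among the first calls. When WT and KO counts of a number were summed, leaving 2 pairs against 2, no gene passed with edgeR (smallest adjusted p 0.0511), while an unadjusted p under 0.05 was reached by 1808 higher and 1541 lower genes. With both libraries of a number left out, edgeR called 1766 higher and 1446 lower genes without replicate 1, 558 and 137 without replicate 2, 383 and 240 without replicate 3, and 4 and 1 without replicate 4. Without WT4 alone the counts were 608 and 483. The first principal component of the libraries held 45.4% of the variance and put replicates 1-2 between -69.3 and -20.5 and replicates 3-4 between 29.6 and 57.3. Correlations between libraries across genes ran from 0.897 to 0.954 within replicates 1-2, from 0.925 to 0.943 within replicates 3-4 and from 0.807 to 0.931 across the sets. WT1 stood apart within its set, at -69.3 on the first component. Counts below of list members ordered by library, such as WT1 lowest, have no share over all genes beside them. Such counts describe the lists alone.

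Fmr1 (chrX:68678536-68717963, GRCm38) was measured first, as the targeted gene. Its RNA stood at 40.9, 107, 8.64 and 30.9 CPM against 37.3, 27.4, 10.7 and 3.35 CPM, in the order WT1, WT2, KO1, KO2 and then WT3, WT4, KO3, KO4, which is kept for all values below. Each KO library was below the WT library of its own number, but KO2 was above WT4, KO libraries still held Fmr1 reads, and the set difference did not pass (log2 fold change 1.33, SE 0.50, adjusted p = 0.0785). It passed without replicate 1 of both genotypes (log2 fold change 1.90, SE 0.39, adjusted p = 0.017) and in 1 of the fits that left out 1 library. In the first fit, over all libraries, edgeR called 0 genes between genotypes (458 at an unadjusted p under 0.05). That fit had no term for replicate number, so it did not pair WT and KO libraries of the same number. Whether the set difference itself differed between WT and KO was tested as an interaction, which called 0 genes (133 at an unadjusted p under 0.05, and 0 with DESeq2). The calls between the sets were made over both genotypes together, which selects for equal signs, so agreement among them is no separate check. All 2791 called genes that could be fitted in each genotype alone had the same sign in both, with a median size of 1.11 on the log2 scale in WT and 0.826 in KO. With 2 libraries against 2, those fits called 0 genes in WT and 1 in KO (by unadjusted p under 0.05, 1473 higher with 1183 lower, and 1150 higher with 837 lower).

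Immediate early genes had the highest median of the lists with tested members. Of 38 tested members of the list, 26 rose in replicates 1-2 and none fell, and their median log2 fold change was 3.35. With the random block 8 of them passed. Before the values, promoter sequence is shown for 5 genes, because the immediate early and DNA replication groups moved together and each is known for a promoter motif. The CArG box is bound by serum response factor, the cAMP response element (CRE) by CREB, and E2F sites by the E2F factors that turn on replication genes. Each line runs 5′ to 3′ from 250 bases before to 50 bases after a RefSeq start site (GRCm38.p6), with 1 motif in capitals in each window and any other match left in lower case.
Egr2 (chr10:67537619-67537918, plus strand), CArG box CCATATATGG: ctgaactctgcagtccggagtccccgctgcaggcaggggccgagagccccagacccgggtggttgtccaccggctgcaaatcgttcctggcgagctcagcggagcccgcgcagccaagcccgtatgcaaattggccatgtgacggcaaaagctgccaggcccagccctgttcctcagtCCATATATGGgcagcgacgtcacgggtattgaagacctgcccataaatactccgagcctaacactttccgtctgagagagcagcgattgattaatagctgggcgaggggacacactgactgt
Zfp36 (chr7:28379179-28379478, minus strand), CArG box CCATAAAAGG: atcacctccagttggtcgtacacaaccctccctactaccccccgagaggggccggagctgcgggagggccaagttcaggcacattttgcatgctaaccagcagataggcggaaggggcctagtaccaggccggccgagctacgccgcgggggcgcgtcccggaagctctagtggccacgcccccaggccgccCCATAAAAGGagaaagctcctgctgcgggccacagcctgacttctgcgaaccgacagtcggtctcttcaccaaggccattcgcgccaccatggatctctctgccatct
Dusp1 (chr17:26508423-26508722, minus strand), CRE TGACGTCA: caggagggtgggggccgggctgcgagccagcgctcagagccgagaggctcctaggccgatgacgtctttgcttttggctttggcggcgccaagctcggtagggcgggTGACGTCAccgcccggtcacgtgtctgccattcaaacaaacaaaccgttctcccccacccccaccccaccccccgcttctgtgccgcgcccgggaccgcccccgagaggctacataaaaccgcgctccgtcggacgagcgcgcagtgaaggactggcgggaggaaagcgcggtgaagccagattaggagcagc
Mcm5 (chr8:75109259-75109558, plus strand), E2F words TTTCGCGC and, on the other strand and overlapping it, TTTGGCGC: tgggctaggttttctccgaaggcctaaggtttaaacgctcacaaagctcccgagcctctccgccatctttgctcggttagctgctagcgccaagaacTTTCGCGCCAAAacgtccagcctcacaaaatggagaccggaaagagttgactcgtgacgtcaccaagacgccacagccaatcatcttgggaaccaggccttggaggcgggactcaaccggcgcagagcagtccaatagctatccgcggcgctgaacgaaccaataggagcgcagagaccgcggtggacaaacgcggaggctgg
Cdc6 (chr11:98907901-98908200, plus strand), E2F word TTTCCCGC on the other strand: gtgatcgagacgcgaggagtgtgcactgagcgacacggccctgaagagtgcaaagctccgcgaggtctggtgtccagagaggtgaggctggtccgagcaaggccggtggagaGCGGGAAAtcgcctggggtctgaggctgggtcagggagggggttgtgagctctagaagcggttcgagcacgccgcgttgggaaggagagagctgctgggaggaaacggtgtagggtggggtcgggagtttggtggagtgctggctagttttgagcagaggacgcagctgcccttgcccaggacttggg
The windows were searched on both strands for 5 motifs: TGACGTCA (CRE), the CArG box, 4 E2F words (TTTCCCGC, TTTCGCGC, TTTGCCGC and TTTGGCGC), CCAAT and TATAAA. The CArG box was in a window of 3 of the 31 immediate early genes with a sequence (Egr2, Zfp36 and Srf, 9.68%) and of 1.81% of all 27025 genes with one, 1.56% of genes tested here, 1.87% of genes called higher and 1.55% of genes called lower. The CRE was in 3 of the 31 (Btg2, Maff and Dusp1, 9.68%), against 2.03% of all genes, 3.89% of genes tested here, 3.65% of genes called higher and 3.97% of genes called lower. An E2F word was in 14 of 38 DNA replication genes (36.8%), against 2.61% of all genes, 4.99% of genes tested here, 6.58% of genes called lower and 3.83% of genes called higher. CCAAT was in 33 of 44 G2 and mitosis genes (75.0%), in 41.1% of all genes and in 43.6% of genes tested here. The Mcm5 window also holds a CRE and CCAAT, and the Egr2 window CCAAT, left in lower case. These matches describe the letters in the windows.

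Among transcription factor genes of the list, Fos (chr12:85473890-85477274), a subunit of AP-1, stood at 4046, 749, 3022 and 861 CPM against 46.5, 18.2, 11.2 and 5.94 CPM (log2 fold change 6.98, SE 0.82, adjusted p = 0.00688). Fosb, a relative of Fos, stood at 1937, 130.0, 1317 and 108 CPM against 1.98, 0.939, 0.163 and 0.152 CPM (log2 fold change 10.17, SE 1.37, adjusted p = 0.0074, with the block adjusted p = 0.0818). The orphan nuclear receptor gene Nr4a1 stood at 2116, 81.9, 1830.1 and 76.8 CPM against 10.9, 18.6, 9.28 and 6.25 CPM (log2 fold change 6.57, SE 1.26, adjusted p = 0.0115, with the block adjusted p = 0.0595). For these 3 genes every library of replicates 1-2 was above every library of replicates 3-4, and WT1 and KO1 were far above WT2 and KO2.

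Egr2, a zinc finger factor gene whose CArG box is shown above, stood at 593, 79.9, 563 and 90.6 CPM against 14.5, 8.61, 8.63 and 4.88 CPM (log2 fold change 5.22, SE 0.81, adjusted p = 0.00829). Egr3, of the same family, stood at 626, 32.3, 492 and 27.1 CPM against 3.46, 1.57, 0.488 and 3.96 CPM (log2 fold change 6.93, SE 1.29, adjusted p = 0.0106, with the block adjusted p = 0.137). Egr1 was already abundant in replicates 3-4, at 2902, 757, 2753 and 1211 CPM against 481, 451, 383 and 242 CPM, and its difference was smaller (log2 fold change 2.32, SE 0.45, adjusted p = 0.0116). All 3 were higher in WT1 and KO1 than in the other 6 libraries, and WT2 and KO2 still lay above replicates 3-4. The AP-1 gene Junb rose as well and stood at 981, 212, 435 and 266 CPM against 55.4, 34.4, 31.6 and 19.7 CPM (log2 fold change 3.75, SE 0.48, adjusted p = 0.00688). Jun, another AP-1 gene, stood at 1348, 367, 832 and 371 CPM against 125, 123, 127 and 115 CPM (log2 fold change 2.55, SE 0.42, adjusted p = 0.00871), again with no overlap between the sets.

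Dusp1, the phosphatase gene that switches off MAP kinases and carries the CRE shown above, stood at 469, 101, 300.4 and 91.8 CPM against 25.4, 20.8, 24.1 and 19.7 CPM (log2 fold change 3.39, SE 0.54, adjusted p = 0.00829). Zfp36, whose protein speeds the decay of short-lived mRNAs, stood at 167, 26.4, 47.7 and 52.6 CPM against 6.93, 4.70, 5.70 and 5.64 CPM (log2 fold change 3.60, SE 0.55, adjusted p = 0.00829). Ier2 also rose, by 3.12, SE 0.51 on the log2 scale (adjusted p = 0.00874). The 18 members that rose in the first fit but not with the block, among them Arc, Atf3, Klf2, Klf4, Nr4a2 and Nr4a3, had an adjusted p of 0.0505 (Klf6) to 0.322 (Nr4a3) in the block fit. In the 12 members that did not pass, log2 fold changes ran from -0.60 (Ier5) to 3.31 (Socs3), with Srf at 0.77, SE 0.56 and Klf10 at 0.08, SE 0.29.

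The order of the libraries was the same in most members. The mean of log2(CPM + 1) over the list was 7.89 in WT1, 7.22 in KO1, 5.17 in WT2 and 5.04 in KO2, and between 3.50 and 4.27 in replicates 3-4. WT1 and KO1 were above the other 6 libraries in 34 of 38 members, and WT2 and KO2 were above all of replicates 3-4 in 21. The number that rose depended on single libraries, with 13 without WT4, 14 without WT3, 15 without WT1, KO1 or KO4 and up to 31 in the other omissions. Without replicate 1 of both genotypes 14 rose and 1 fell (Srf, log2 fold change -0.84, adjusted p = 0.0258). The list median in that fit was 1.04, against 3.35 over all libraries.

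**Figure D1:**
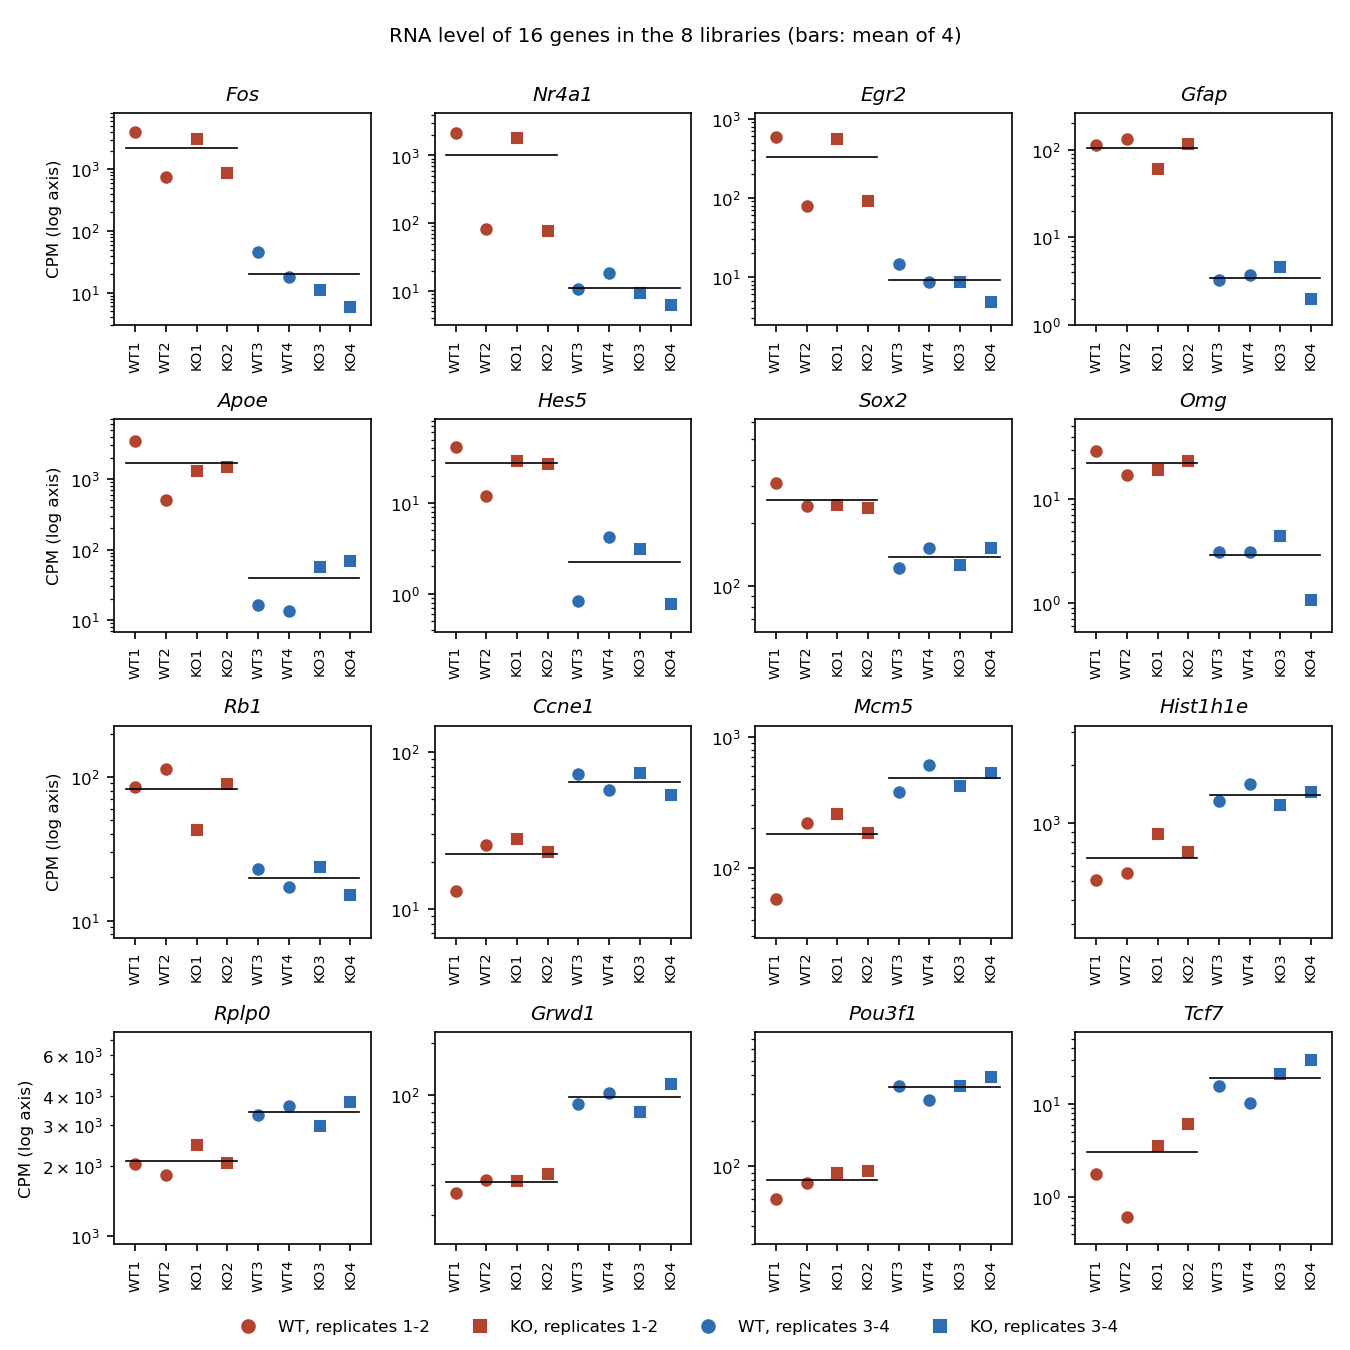
RNA level in CPM on log axes for 16 genes in the 8 libraries (circles WT, squares KO, red replicates 1-2, blue replicates 3-4, bars the mean of 4). Fos, Nr4a1 and Egr2 are highest in WT1 and KO1, Gfap and Apoe are high in all of replicates 1-2, and Mcm5, Hist1h1e, Rplp0, Grwd1 and Pou3f1 are lower in all of replicates 1-2 than in any library of replicates 3-4.

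Astrocyte genes were higher in replicates 1-2, with 14 of 21 tested members up, none down and a median log2 fold change of 1.30. With the random block 8 passed, and without WT3 the number was 9. Gfap (chr11:102887336-102897200), the intermediate filament gene that marks astrocytes and resting neural stem cells, stood at 113, 132, 60.1 and 117 CPM against 3.30, 3.76, 4.56 and 1.98 CPM (log2 fold change 4.94, SE 0.33, adjusted p = 0.00132). Apoe (chr7:19696244-19701310), which encodes the main lipid carrier of the brain, stood at 3513, 502, 1291 and 1469 CPM against 16.3, 13.6, 55.8 and 69.6 CPM (log2 fold change 5.73, SE 0.80, adjusted p = 0.00751). Both genes were higher in each library of replicates 1-2 than in any of replicates 3-4.

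Slc1a2, the gene of a glutamate transporter, stood at 274, 83.5, 121 and 206 CPM against 9.07, 5.17, 27.7 and 7.16 CPM (log2 fold change 3.91, SE 0.60, adjusted p = 0.00829). Itih3, whose product binds hyaluronan, stood at 52.1, 13.1, 35.4 and 34.2 CPM against 0.165, 0.783, 1.30 and 0.609 CPM (log2 fold change 5.54, SE 0.59, adjusted p = 0.00551). The bicarbonate transporter gene Slc4a4 stood at 709, 245, 357 and 508 CPM against 83.3, 48.5, 121 and 43.0 CPM (log2 fold change 2.63, SE 0.44, adjusted p = 0.009). WT1 was the highest of the 8 libraries for 18 of the 21 members, and the other libraries of replicates 1-2 were still above all of replicates 3-4 for these 3 genes.

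Slc1a3, the glutamate transporter gene shared by stem cells and astrocytes, rose by 1.17, SE 0.20 (adjusted p = 0.00932), Atp1b2 by 2.27, SE 0.40 (adjusted p = 0.0099) and Cst3 by 2.24, SE 0.34 (adjusted p = 0.00826). The transcription factor gene Sox9 rose by 1.06, SE 0.27 (adjusted p = 0.0257, with the block adjusted p = 0.0583, lost without WT3, WT4 or KO3 with at most adjusted p = 0.0831). Not all of the list moved: Glul, for glutamine synthetase, was at 1570.0, 543, 505 and 774 CPM against 1188, 608, 834 and 1385 CPM (log2 fold change -0.28, SE 0.41, adjusted p = 0.633), and Acsbg1 at 645, 465, 579.9 and 749.6 CPM against 675, 814, 829 and 606 CPM (log2 fold change -0.27, SE 0.19, adjusted p = 0.311). Aqp4 and Gjb6, markers of mature astrocytes, were too low to be tested, with Aqp4 at a mean of 1.34 CPM in replicates 1-2 and 0.200 CPM in replicates 3-4.

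The labelled cell type was checked against neural stem and progenitor genes. Nes, for the filament nestin, stood at 1713, 2389, 2246 and 1855 CPM against 2620.4, 3107, 2573 and 2878 CPM and did not pass (log2 fold change -0.45, SE 0.16, adjusted p = 0.0699), and Vim, Notch1 and Tnc were abundant in all 8 libraries. Prom1 and Hopx were at or near 0, with at most 0.152 and 0.393 CPM in any library. Of 21 tested members 3 rose (6 without KO1) and none fell, beside 13.1% higher and 12.1% lower over all genes, so the rises were near that share. Their median log2 fold change was 0.34, or 0.13 without replicate 1 of both genotypes. Hes5, a Notch target gene of stem cells, stood at 41.8, 11.8, 29.3 and 26.9 CPM against 0.825, 4.23, 3.09 and 0.762 CPM (log2 fold change 3.62, SE 0.62, adjusted p = 0.00932).

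Sox2, the stem cell factor gene, stood at 310.3, 241, 244 and 236 CPM against 122, 152, 126 and 151 CPM (log2 fold change 0.90, SE 0.16, adjusted p = 0.00971). Nfib, a factor gene linked to glial fate, stood at 232, 269, 185 and 336 CPM against 145, 109, 167 and 148 CPM (log2 fold change 0.85, SE 0.21, adjusted p = 0.0231, with the block adjusted p = 0.054, lost without WT2, KO2, WT3, WT4 or KO4 with at most adjusted p = 0.0773). Pax6 and Sox1 differed by 0.41, SE 0.16 and 0.34, SE 0.23, short of the threshold.

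Of 13 tested oligodendrocyte lineage genes 6 rose and none fell, with a median of 0.77, and 5 passed with the random block. Among all genes 13.1% rose, or 6.43% with the block. Omg, for a myelin glycoprotein, stood at 29.3, 16.9, 19.3 and 23.1 CPM against 3.13, 3.13, 4.39 and 1.07 CPM (log2 fold change 2.91, SE 0.41, adjusted p = 0.00751). Lhfpl3 and Enpp2 rose by 3.66, SE 0.66 and 3.35, SE 0.73 (adjusted p = 0.01 and 0.0153), and Cnp by 1.38, SE 0.29 (adjusted p = 0.0145, lost without WT4 with at most adjusted p = 0.0512). The lineage factor genes Olig1 and Olig2 were abundant in all libraries and did not pass, at -0.30, SE 0.23 and -0.39, SE 0.19, while Sox10, Mag and Mog were near 0. Nkx2-2 was lower in each KO library than in any WT library, at 65.6, 37.4, 6.60 and 9.63 CPM against 54.6, 56.8, 3.74 and 0.305 CPM, and its set difference did not pass either (log2 fold change 0.77, SE 0.60, adjusted p = 0.359).

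Of 27 neuroblast and neuron genes 9 could be tested, and 4 of these rose (Gad1, Sox4, Prox1 and Ncam1), or 2 with the random block and 2 without KO2 or WT4. The share that rose over all genes was 13.1%, or 6.43% with the block. Gad1, for the enzyme that makes GABA, stood at 34.4, 16.6, 15.7 and 14.1 CPM against 2.47, 1.57, 5.53 and 2.13 CPM (log2 fold change 2.77, SE 0.50, adjusted p = 0.01). Sox4, a factor gene of young neurons and progenitors, stood at 816, 509.6, 489.8 and 468 CPM against 171, 212, 153 and 209 CPM (log2 fold change 1.60, SE 0.21, adjusted p = 0.00697). Prox1, a factor gene of dentate granule cells, stood at 222, 77.8, 75.7 and 76.5 CPM against 68.4, 22.7, 32.6 and 24.7 CPM (log2 fold change 1.57, SE 0.40, adjusted p = 0.0259, with the block adjusted p = 0.0561, lost without WT1, KO2, WT4 or KO4 with at most adjusted p = 0.0646). WT1 was the highest library for all 3 genes. Ncam1, a cell adhesion gene, rose by 0.63, SE 0.16 (adjusted p = 0.0269, with the block adjusted p = 0.0657, lost without KO2, WT3, WT4 or KO3 with at most adjusted p = 0.0833).

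Most markers of other cell types were low in both sets, but Foxc1 reached 62.8 CPM and Foxj1 76.6 CPM. No microglia or macrophage gene of 14 reached the filter. Their sum was 1.86 to 3.14 CPM in replicates 1-2 and 1.10 to 2.31 CPM in replicates 3-4, and Aif1, Cx3cr1, Ptprc, C1qc and Fcer1g had no count. Endothelial and mural genes summed to 12.6 to 34.4 CPM and 8.74 to 25.4 CPM, with Cldn5 at 0 and none of 3 tested genes past the threshold (Flt1 1.46, SE 0.53, Acta2 0.25, SE 0.78, Tek -0.64, SE 0.56). Fibroblast genes summed to 27.4 to 45.4 CPM and 25.4 to 74.2 CPM, with Col1a2, Dcn, Lum and Postn at 0 and neither of 2 tested genes past it (Foxc1 -0.10, SE 0.27, Tbx18 -1.91, SE 0.88). Of 8 ependymal genes, Foxj1, the master factor of motile cilia, was tested and fell, at 28.3, 21.4, 22.9 and 34.5 CPM against 63.3, 66.1, 36.9 and 76.6 CPM (log2 fold change -1.18, SE 0.27, adjusted p = 0.0169, with the block adjusted p = 0.0518, lost without WT4 or KO4 with at most adjusted p = 0.0596), while the cilium genes Tmem212, Pifo and Ccdc153 were at or near 0. The part of such cells in the results was not tested.

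**Figure D2:**
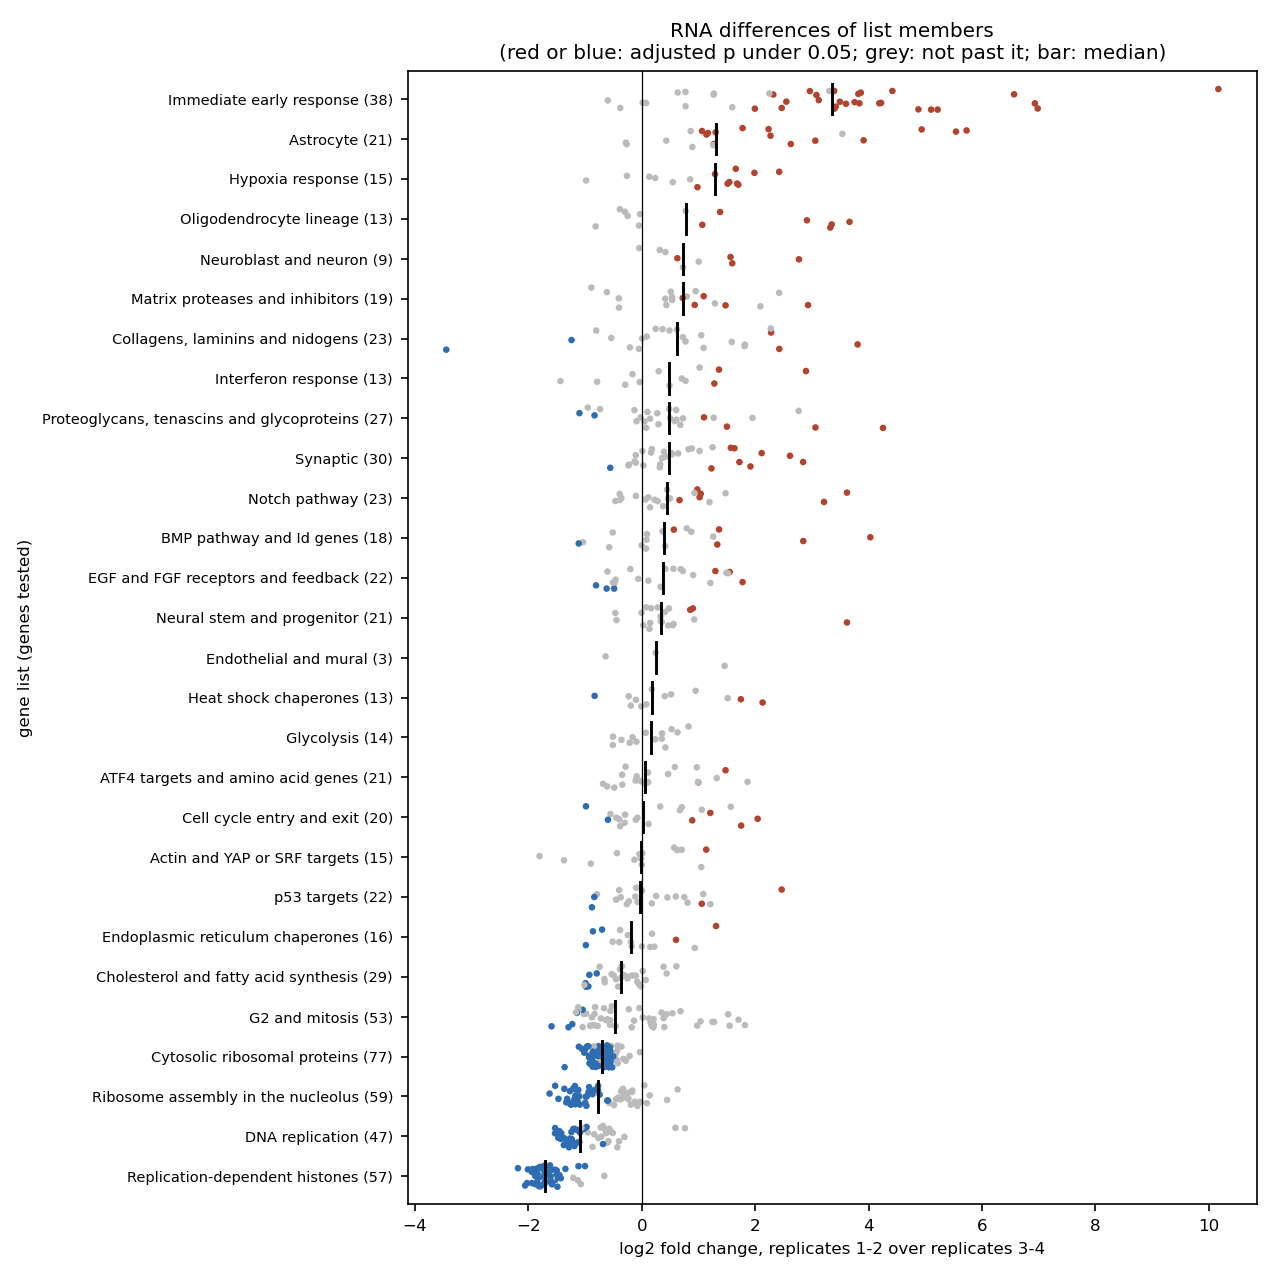
Log2 fold change (replicates 1-2 over replicates 3-4) of each tested member of the gene lists, with the number tested in brackets; red and blue dots passed an adjusted p of 0.05, grey dots did not, and black bars are medians. Immediate early genes have the highest median (3.35) and replication-dependent histones the lowest (-1.71).

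Genes needed for DNA synthesis were lower in replicates 1-2. Of 57 tested histone genes that are expressed with replication, 51 fell and none rose, the median log2 fold change was -1.71, and 44 fell with the random block. These genes are near-identical copies, so the share of reads given to each is uncertain. Hist1h4m and Hist1h4n, for example, had the same log2 fold change (-1.61), so counts of members are not counts of separate measurements. Hist1h1e, a linker histone gene, stood at 504, 551, 878 and 704 CPM against 1303, 1611, 1242 and 1451 CPM (log2 fold change -1.12, SE 0.19, adjusted p = 0.00932). Hist1h1a, another linker, stood at 52.4, 125, 204 and 168 CPM against 519, 578, 472 and 574 CPM (log2 fold change -2.06, SE 0.33, adjusted p = 0.00847). Hist1h4j, for core histone H4, stood at 7.46, 11.1, 8.97 and 21.4 CPM against 43.5, 77.2, 44.6 and 53.3 CPM (log2 fold change -2.18, SE 0.37, adjusted p = 0.00915).

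WT1 was the lowest library for 56 of the 57 histone genes, and WT2 and KO2 were below all of replicates 3-4 for 54. Between 42 and 52 members fell when 1 library was left out.

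Of 47 tested DNA replication genes 27 fell, none rose, and the median was -1.09. With the random block 13 fell, and 9 fell without WT4, 10 without KO2, 13 without WT3, 16 without KO4 and 30 without replicate 1 of both genotypes, a fit in which 2 rose. Ccne1, the cyclin that starts S phase, stood at 13.0, 25.4, 27.9 and 23.1 CPM against 72.6, 57.1, 73.7 and 52.9 CPM (log2 fold change -1.53, SE 0.25, adjusted p = 0.009). Mcm5, a subunit of the replicative helicase with the E2F words shown above, stood at 57.7, 219, 259 and 183 CPM against 380.3, 610.3, 419 and 534 CPM (log2 fold change -1.47, SE 0.40, adjusted p = 0.0299, with the block adjusted p = 0.0637, lost without KO2, WT3, WT4 or KO4 with at most adjusted p = 0.0855). Cdc6, which loads that helicase, stood at 11.8, 30.3, 32.8 and 25.6 CPM against 63.2, 65.4, 60.2 and 61.9 CPM (log2 fold change -1.33, SE 0.29, adjusted p = 0.0152). In these 3 genes WT1 was lowest, and WT2, KO1 and KO2 were also below all of replicates 3-4.

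The licensing gene Cdt1 fell by 1.45 on the log2 scale (SE 0.26, adjusted p = 0.00993), and Tyms, for thymidylate synthase, by 1.42 (SE 0.29, adjusted p = 0.0136). Ung, for uracil removal from DNA, stood at 6.29, 18.6, 24.2 and 18.1 CPM against 37.6, 50.4, 57.5 and 43.4 CPM (log2 fold change -1.53, SE 0.34, adjusted p = 0.016, lost without WT4 with at most adjusted p = 0.0507). Tk1, for thymidine kinase, stood at 8.64, 31.1, 38.9 and 30.7 CPM against 67.4, 70.1, 75.7 and 76.8 CPM (log2 fold change -1.45, SE 0.35, adjusted p = 0.0211, lost without KO2, WT3 or WT4 with at most adjusted p = 0.0607). WT1 was the lowest of the 8 libraries for 46 of the 47 members, and WT2 and KO2 were below all of replicates 3-4 in 37. The members with values above 0, Rfc1 (0.76, SE 0.33) and Pola1 (0.59, SE 0.55), did not pass over all libraries and were the 2 that rose without replicate 1 (Rfc1 1.17, SE 0.27, adjusted p = 0.0227; Pola1 1.27, SE 0.32, adjusted p = 0.0294).

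G2 and mitosis genes gave another picture, in which WT1 stood alone. It was lowest for 52 of 53 members, with a mean log2(CPM + 1) of 4.48 against 6.35 to 6.95 in the other 7 libraries. Over all libraries 5 members fell, none rose, and the median was -0.47, and with the random block 1 fell. The share of all genes that fell was 12.1%, or 5.52% with the block. No member fell without KO2, WT3, WT4 or KO4, and 2 fell without WT2. Without WT1 6 rose and 10 fell, and without replicate 1 of both genotypes 18 rose and 11 fell. Mybl2, a mitotic transcription factor gene, stood at 14.3, 65.2, 54.2 and 57.8 CPM against 120.4, 172, 123 and 156 CPM (log2 fold change -1.59, SE 0.40, adjusted p = 0.0246, lost without KO2, WT3, WT4 or KO4 with at most adjusted p = 0.0731). Plk1, the polo kinase, stood at 54.2, 153, 244 and 224 CPM against 339.5, 439, 344 and 405 CPM (log2 fold change -1.29, SE 0.36, adjusted p = 0.0338, with the block adjusted p = 0.0754, lost without WT2, KO2, WT3, WT4 or KO4 with at most adjusted p = 0.0876).

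With replicate 1 left out, Mybl2 (-1.24, SE 0.21, adjusted p = 0.0119), Plk1 (-1.06, SE 0.21, adjusted p = 0.016), Cdc20 (-0.94, SE 0.18, adjusted p = 0.0146) and Cdk1 (-0.80, SE 0.15, adjusted p = 0.0138) fell. Smc4, a condensin subunit, stood at 9.82, 88.2, 23.9 and 160.5 CPM against 23.6, 20.4, 31.9 and 18.3 CPM, and it rose in that fit (2.33, SE 0.27, adjusted p = 0.0069). The kinetochore gene Cenpf stood at 22.0, 106, 33.4 and 601 CPM against 51.3, 30.1, 46.2 and 35.0 CPM and rose in it as well (2.80, SE 0.56, adjusted p = 0.016). Top2a (1.24, SE 0.16, adjusted p = 0.00766) and Mki67 (1.99, SE 0.51, adjusted p = 0.0318), the proliferation marker, were also among the 18. KO2 was the highest library for Cenpf, Smc4, Top2a and Mki67, and WT1 was lowest for all 4.

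Among genes that set entry into and exit from the cycle, 4 of 20 tested rose and 2 fell, or 4 and 1 with the random block. Over all genes 13.1% were higher and 12.1% lower, and the median log2 fold change of the list was 0.02. Rb1, the retinoblastoma protein that holds E2F factors back, stood at 85.4, 113, 43.0 and 89.0 CPM against 22.8, 17.22, 23.6 and 15.1 CPM (log2 fold change 2.04, SE 0.29, adjusted p = 0.00757). Ccng2, a cyclin linked to arrest, stood at 56.2, 53.6, 45.4 and 41.2 CPM against 12.9, 15.2, 12.9 and 16.9 CPM (log2 fold change 1.75, SE 0.19, adjusted p = 0.00553). Rbl2, an Rb relative of resting cells, stood at 150.5, 113, 95.8 and 109.9 CPM against 52.1, 49.6, 54.0 and 45.7 CPM (log2 fold change 1.21, SE 0.17, adjusted p = 0.00751). Cdkn1b, the kinase inhibitor p27, rose by 0.89, SE 0.17 (adjusted p = 0.0116). None of these 4 overlapped between the sets, and each passed in all 8 fits that left out 1 library.

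Cdk2, the partner of cyclin E, fell, at 24.2, 30.6, 42.7 and 31.7 CPM against 62.5, 70.3, 69.7 and 50.7 CPM (log2 fold change -0.98, SE 0.21, adjusted p = 0.0148). Cdk4, the partner of D cyclins, stood at 421, 478, 726 and 523 CPM against 720.0, 894, 737 and 855 CPM (log2 fold change -0.60, SE 0.18, adjusted p = 0.0435, with the block adjusted p = 0.0894, lost without WT1, WT2, KO2, WT3, WT4 or KO4 with at most adjusted p = 0.126). The D cyclin genes Ccnd1 (-0.55, SE 0.32), Ccnd2 (-0.08, SE 0.44) and Ccnd3 (-0.30, SE 0.18), Myc (-0.38, SE 0.28) and the inhibitor gene Cdkn1a (-0.40, SE 0.33) did not pass.

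**Figure D3:**
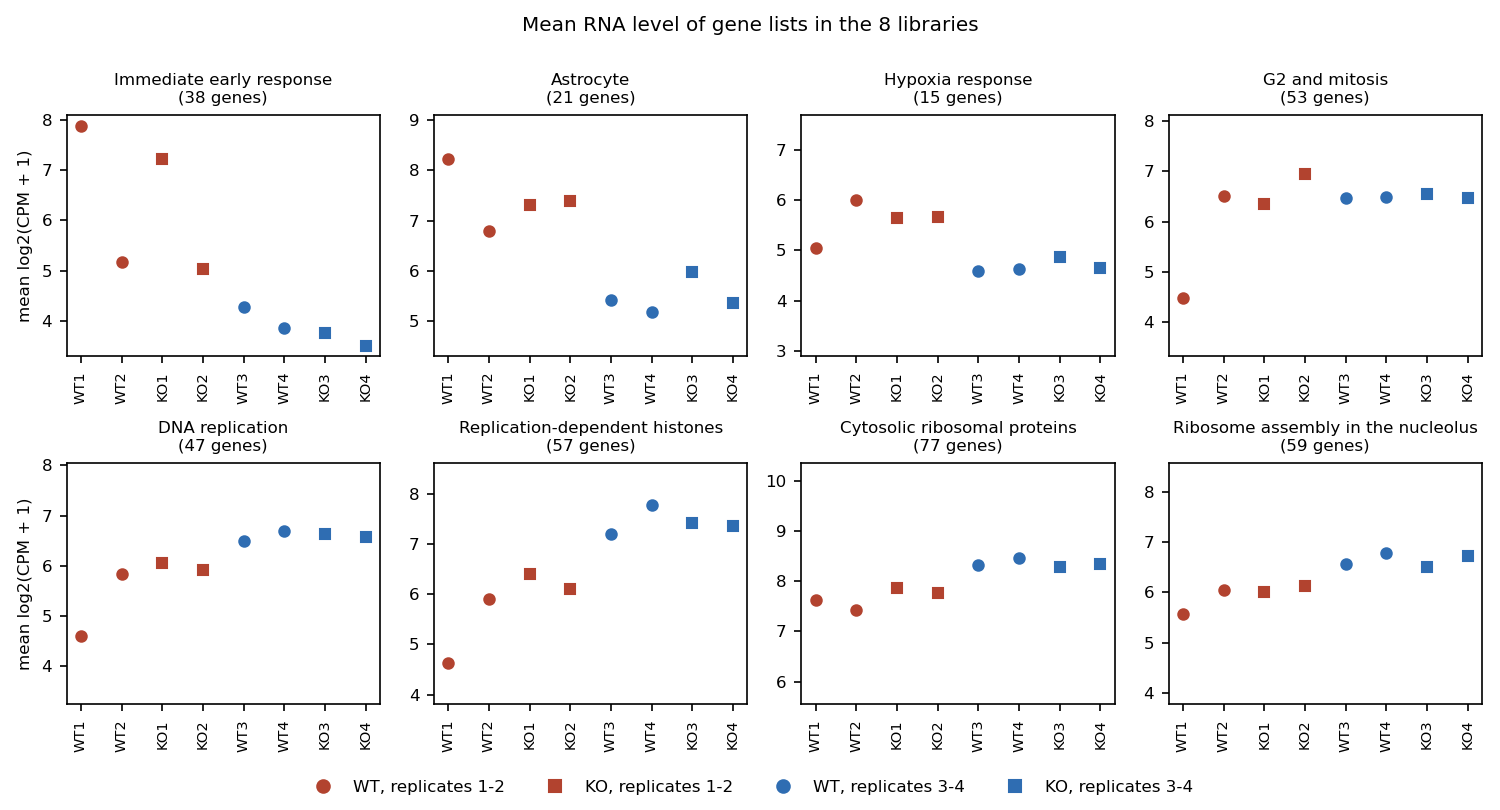
Mean of log2(CPM + 1) over the tested members of 8 gene lists in each library (circles WT, squares KO, red replicates 1-2, blue replicates 3-4; all panels span the same number of log2 units). WT1 and KO1 are highest for immediate early genes, WT1 is lowest for histones and DNA replication, and for G2 and mitosis WT1 lies at 4.48 while the other 7 libraries lie between 6.35 and 6.95.

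Ribosome genes fell as a group. Of 77 tested genes of cytosolic ribosomal proteins 62 fell and none rose, with a median of -0.70. Of these, 39 fell with the random block. Without WT4 29 fell, without WT3 or KO4 35, without KO2 38 and without WT2 39. Rplp0, of the ribosomal stalk, stood at 2040.4, 1843, 2469 and 2067 CPM against 3321, 3620.3, 2989 and 3776 CPM (log2 fold change -0.71, SE 0.15, adjusted p = 0.0147, lost without WT4 or KO4 with at most adjusted p = 0.0547). Rps2, of the small subunit, stood at 1988, 2387, 3272 and 2592 CPM against 4739, 5772, 4409 and 6143 CPM (log2 fold change -1.06, SE 0.18, adjusted p = 0.00954). Rps27l, a less abundant copy of Rps27, stood at 12.6, 8.92, 16.9 and 18.3 CPM against 34.1, 46.7, 32.6 and 29.7 CPM (log2 fold change -1.36, SE 0.28, adjusted p = 0.0134). WT2 and KO2 were below all of replicates 3-4 in 72 of the 77 members, and WT1 was the lowest library in 9, against 46 of 47 for DNA replication. On the TPM scale 35 fell. Many of these genes have near-identical processed pseudogenes, so single values are uncertain.

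A list of 59 tested genes that assemble ribosomes in the nucleolus was added after Grwd1 and Ppan were seen among the lower genes, so its count is a description. Of these, 34 fell and none rose, the median was -0.77, and 26 fell with the random block. Grwd1, a chaperone of ribosome assembly, stood at 27.1, 32.3, 31.7 and 34.7 CPM against 88.7, 103, 79.8 and 116 CPM (log2 fold change -1.63, SE 0.18, adjusted p = 0.00553). Rrp9, which binds the U3 small nucleolar RNA, stood at 21.0, 29.4, 42.7 and 42.2 CPM against 80.3, 108, 76.5 and 114 CPM (log2 fold change -1.53, SE 0.24, adjusted p = 0.00829). Fbl, the fibrillarin methylase that modifies ribosomal RNA, stood at 105, 157, 211 and 164 CPM against 292, 443, 316 and 366 CPM (log2 fold change -1.18, SE 0.23, adjusted p = 0.0118). The sets did not overlap in any of the 3.

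Counts of matrix genes were near or below those over all genes (13.1% higher and 12.1% lower), apart from the rises among proteases. Of 27 tested proteoglycans, tenascins and glycoproteins 4 rose (3 with the random block, 2 without WT3 or WT4) and 2 fell (1 with the block), with a median of 0.48. Tnr, for tenascin-R of perineuronal matrix, stood at 64.6, 93.8, 26.6 and 44.6 CPM against 2.97, 10.96, 2.28 and 9.29 CPM (log2 fold change 3.06, SE 0.53, adjusted p = 0.00941). Ncan, for neurocan, stood at 2081, 1955, 3375 and 2483 CPM against 858, 1034, 1567 and 1162 CPM (log2 fold change 1.10, SE 0.17, adjusted p = 0.00829). Agrn, for agrin, stood at 1977, 837, 1161 and 648 CPM against 469, 302, 459 and 365 CPM (log2 fold change 1.50, SE 0.34, adjusted p = 0.0167, lost without WT3 or WT4 with at most adjusted p = 0.0585). Each library of replicates 1-2 was above all of replicates 3-4 for these 3 genes. Sdc1, a cell surface syndecan, fell, at 32.8, 42.4, 45.2 and 44.8 CPM against 95.5, 88.2, 70.2 and 99.5 CPM (log2 fold change -1.10, SE 0.18, adjusted p = 0.00896).

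The thrombospondin gene Thbs1 stood at 83.3, 4.92, 27.3 and 0.498 CPM against 1.15, 1.57, 0.651 and 1.83 CPM, with WT1 and KO1 high and KO2 below WT3, WT4, KO3 and KO4, and it passed in the first fit alone (log2 fold change 4.25, SE 1.23, adjusted p = 0.0364, with the block adjusted p = 0.271, lost without WT1, KO1, WT3, WT4, KO3 or KO4 with at most adjusted p = 0.161). Tnc (0.08, SE 0.29) and Bcan (0.68, SE 0.32) did not pass.

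Of 23 tested collagens, laminins and nidogens 3 rose and 2 fell, with a median of 0.62. Of the 11 with a transcript length, 10 were in the longest of the 4 length classes given below, whose own median was 0.35. Col6a3 stood at 7.27, 2.92, 3.39 and 4.48 CPM against 0.165, 0.783, 0 and 0.305 CPM (log2 fold change 3.81, SE 0.73, adjusted p = 0.0111), and Col27a1 at 49.1, 18.6, 24.6 and 12.4 CPM against 4.78, 7.52, 1.79 and 5.18 CPM (log2 fold change 2.42, SE 0.45, adjusted p = 0.0106). Lamb3, a laminin chain of epithelia, fell, at 1.57, 0.769, 1.02 and 1.49 CPM against 9.07, 9.39, 8.79 and 28.6 CPM (log2 fold change -3.45, SE 0.49, adjusted p = 0.00767), and Col9a3 fell too (-1.24, SE 0.31, adjusted p = 0.0245, lost without WT2, KO2, WT3, WT4 or KO4 with at most adjusted p = 0.0693). The abundant laminin gene Lamc1 (-0.05, SE 0.29) and collagen IV genes Col4a1 (0.09, SE 0.29) and Col4a2 (-0.54, SE 0.21) did not pass.

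Of 19 tested matrix proteases and inhibitors 5 rose (4 with the random block, 3 without KO4) and none fell, with a median of 0.72. Of the 17 with a transcript length, 9 were in the longest class given below, in which 26.8% of genes were called higher. Adamts1, a protease of proteoglycans, stood at 337, 156, 175 and 20.7 CPM against 31.3, 20.4, 16.8 and 15.4 CPM (log2 fold change 2.93, SE 0.60, adjusted p = 0.0134), with KO2 within the range of replicates 3-4. Adam9 stood at 379.7, 548, 359 and 418 CPM against 212, 247, 136 and 209 CPM (log2 fold change 1.09, SE 0.19, adjusted p = 0.00998) and Adam17, the sheddase of EGF receptor ligands, at 124, 136, 133 and 127 CPM against 93.7, 72.8, 77.5 and 71.6 CPM (log2 fold change 0.72, SE 0.15, adjusted p = 0.0134). The last 2 did not overlap between the sets.

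Receptors and feedback genes of the medium's growth factors were called about as often as all genes (13.1% higher and 12.1% lower). Of 22 tested 3 rose and 3 fell, or 0 and 2 with the random block, and these counts rest on single libraries, since none rose without WT3 and none fell without WT3 or KO2. Without WT1, KO1, WT4 or KO4 1 rose, without KO4 1 fell, and without WT2 6 rose. Egfr, the EGF receptor, stood at 1370.0, 439, 907 and 766 CPM against 318, 313, 387 and 406 CPM (log2 fold change 1.30, SE 0.31, adjusted p = 0.0213, with the block adjusted p = 0.0548, lost without WT3 or WT4 with at most adjusted p = 0.0735). Fgfr3, shared with the astrocyte list, stood at 677, 180.5, 510.5 and 307 CPM against 65.8, 195, 107 and 121 CPM (log2 fold change 1.78, SE 0.46, adjusted p = 0.025, with the block adjusted p = 0.0531, lost without WT1, KO1, WT3, KO3 or KO4 with at most adjusted p = 0.0693). Egfr did not overlap between the sets, while WT2 was below WT4 for Fgfr3. Etv5, a target of FGF and ERK signalling, fell, at 415, 491, 459 and 427 CPM against 988, 598, 776 and 772 CPM (log2 fold change -0.81, SE 0.18, adjusted p = 0.016, lost without KO2 or WT3 with at most adjusted p = 0.052). Dusp6, the ERK phosphatase, fell as well, at 464, 416, 458 and 397 CPM against 754, 569.8, 695 and 648 CPM (log2 fold change -0.62, SE 0.15, adjusted p = 0.0198, lost without KO2, WT3 or KO4 with at most adjusted p = 0.0693). Fgfr1 fell by 0.49 (SE 0.14, adjusted p = 0.0363, with the block adjusted p = 0.068, lost without WT2, KO2, WT3, WT4, KO3 or KO4 with at most adjusted p = 0.113). Spry1 (-0.48, SE 0.20), Spry2 (0.72, SE 0.26) and Spry4 (-0.46, SE 0.22), feedback inhibitors of the same pathway, did not pass.

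Of 23 tested Notch pathway genes 6 rose and none fell, with a median of 0.45, beside 13.1% higher and 12.1% lower over all genes. With the random block 4 rose, since Hey1 (adjusted p = 0.0873) and Numbl (adjusted p = 0.091) missed the threshold in that fit. Without WT3 3 rose. Dll3, a ligand that acts within the cell, stood at 15.7, 3.69, 16.9 and 11.1 CPM against 0.66, 1.25, 1.79 and 1.37 CPM (log2 fold change 3.21, SE 0.52, adjusted p = 0.00847). Maml2, a co-activator, stood at 205, 182, 216 and 195 CPM against 103, 88.9, 109.5 and 104 CPM (log2 fold change 0.98, SE 0.14, adjusted p = 0.00751). Rbpj, the DNA-binding partner of Notch, rose by 0.67, SE 0.14 (adjusted p = 0.0142, lost without WT3 with at most adjusted p = 0.051), and the target gene Hes5 is given above. The receptor genes Notch1 (0.28, SE 0.26), Notch2 (0.50, SE 0.32) and Notch3 (0.23, SE 0.27) and the target Hes1 (0.15, SE 0.26) did not pass.

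In the BMP pathway 5 of 18 tested genes rose (3 with the random block, and 3 without KO2, WT3, WT4 or KO4) and 1 fell (0 with the block). Beside this, 13.1% of all genes were higher and 12.1% lower, or 6.43% and 5.52% with the block. Id4, a helix-loop-helix inhibitor of resting stem cells, stood at 20.8, 8.45, 5.08 and 7.63 CPM against 0.825, 0.626, 0 and 0.914 CPM (log2 fold change 4.03, SE 0.67, adjusted p = 0.009). The receptor gene Bmpr1b stood at 55.8, 23.8, 41.1 and 38.7 CPM against 3.79, 5.48, 11.4 and 1.68 CPM (log2 fold change 2.85, SE 0.53, adjusted p = 0.0106) and Bmpr2 at 578, 484, 248.6 and 467 CPM against 248, 134, 159 and 155 CPM (log2 fold change 1.33, SE 0.26, adjusted p = 0.0117). Id3 went the other way, at 11.4, 13.8, 16.3 and 17.8 CPM against 31.7, 33.0, 40.4 and 21.9 CPM (log2 fold change -1.11, SE 0.24, adjusted p = 0.016, with the block adjusted p = 0.0555, lost without WT4 with at most adjusted p = 0.0518), and Id1 (-1.04, SE 0.44) did not pass.

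Of 15 tested hypoxia response genes 9 rose and none fell, with a median of 1.29, beside 13.1% higher and 12.1% lower over all genes. With the random block 3 rose, 4 rose without KO2 and 5 without WT3 or WT4. Pdk1, which keeps pyruvate out of mitochondria, stood at 18.1, 69.9, 39.8 and 43.5 CPM against 6.43, 7.05, 13.2 and 5.64 CPM (log2 fold change 2.42, SE 0.45, adjusted p = 0.0105). Kdm3a, a histone demethylase, stood at 214, 238, 195 and 257 CPM against 86.9, 88.3, 103 and 91.9 CPM (log2 fold change 1.29, SE 0.15, adjusted p = 0.00639). Bnip3, a mitophagy receptor, stood at 7.46, 37.5, 19.6 and 25.4 CPM against 3.30, 6.26, 6.84 and 6.55 CPM (log2 fold change 1.99, SE 0.48, adjusted p = 0.0208, with the block adjusted p = 0.077, lost without KO2, WT3 or WT4 with at most adjusted p = 0.062). The libraries were ordered unlike the immediate early genes, since WT2 had the highest list mean of replicates 1-2 and WT1, at 5.04 on log2(CPM + 1), the lowest. None of the 14 glycolysis genes passed with edgeR over all libraries, and their median was 0.15, but without WT1 2 rose, without KO1 1 fell, and the median ran from -0.23 to 0.24 over the fits that left out 1 library.

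The counts of the stress lists were small and most did not hold with the random block, so they are given beside the background of 13.1% higher and 12.1% lower. In p53 targets 2 of 22 rose and 2 fell, or 1 and 1 with the block. Btg2, which slows the cycle, rose by 2.47, SE 0.52 (adjusted p = 0.0146, with the block adjusted p = 0.11), and Sesn1, of the sestrin family, by 1.06, SE 0.23 (adjusted p = 0.015, lost without WT3 or WT4 with at most adjusted p = 0.0552). Bax, which promotes cell death, was at -0.84, SE 0.17, adjusted p = 0.0139, and Aen, a nuclease gene, at -0.88, SE 0.27, adjusted p = 0.0427, with the block adjusted p = 0.114, lost without WT1, WT2, KO1, KO2, WT3, WT4 or KO4 with at most adjusted p = 0.109. Among interferon response genes 3 of 13 rose, or 1 with the block, with 1 in each omission of WT1, KO2, WT3, WT4 or KO4 and 5 without WT2. Gbp2, a guanylate-binding protein gene, rose by 2.90, SE 0.49 (adjusted p = 0.00915). The RNA sensor gene Ddx58 was at 1.36, SE 0.34, adjusted p = 0.024, with the block adjusted p = 0.0596, lost without WT1, KO2, WT3, WT4 or KO4 with at most adjusted p = 0.0732, and the class I histocompatibility gene H2-D1 at 1.28, SE 0.40, adjusted p = 0.0481, with the block adjusted p = 0.106, lost without WT1, KO1, KO2, WT3, WT4 or KO4 with at most adjusted p = 0.139. Among actin, YAP and SRF targets 1 of 15 rose, or 0 with the block, and this was Amotl2, at 1.14, SE 0.32, adjusted p = 0.0354, with the block adjusted p = 0.0611, lost without WT1, KO1, KO2, WT3, KO3 or KO4 with at most adjusted p = 0.0866.

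In ATF4 targets and amino acid genes 2 of 21 rose (1 with the block, 4 without WT1, and 1 without WT2, KO1, WT3 or WT4) and none fell. In endoplasmic reticulum chaperones 2 of 16 rose and 3 fell, or 0 and 0 with the block. There the rises were 0 without KO2, WT3, WT4 or KO4, and 1 without WT2 or KO1. The falls were 0 without KO2, WT3, WT4 or KO3, and 1 without WT2. In heat shock chaperones 2 of 13 rose and 1 fell, or 0 and 0 with the block. There the rises were 0 without WT3, WT4 or KO3, 1 without WT1, KO1, KO2 or KO4 and 3 without WT2, and the fall was lost without WT2, KO1, WT3, WT4 or KO4. Of 29 cholesterol and fatty acid genes none rose and 5 fell, or 1 with the block, with 8 without KO1 and 0 to 2 in each of the other omissions. The 1 that held with the block was Mvk, a kinase gene of the mevalonate pathway, which fell by 0.92 (SE 0.20, adjusted p = 0.0162, lost without WT4 with at most adjusted p = 0.0549). In the block fit Mvd had an adjusted p of 0.0547 and Ebp of 0.0773. WT1 was the lowest library for 23 of those 29 genes.

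Of 30 tested synaptic genes 8 rose and 1 fell, with a median of 0.47, 5 rose with the random block or without KO2, 4 without WT3 and 3 without WT4. The shares over all genes were 13.1% higher and 12.1% lower. Of the 24 with a transcript length, 14 were in the longest class given below, in which 26.8% of genes were called higher. In footprints 5 of 32 tested synaptic genes were higher and 3 lower, with a median of -0.08. Gria4, an AMPA receptor subunit, stood at 49.9, 121, 16.4 and 21.6 CPM against 7.75, 3.44, 9.60 and 5.94 CPM (log2 fold change 2.61, SE 0.63, adjusted p = 0.0208, lost without WT3 or WT4 with at most adjusted p = 0.0754). Dlg4, the postsynaptic scaffold PSD-95, fell, at 109.8, 119, 113 and 115 CPM against 161, 167, 177 and 167 CPM (log2 fold change -0.56, SE 0.13, adjusted p = 0.0173, lost without KO2, WT3, WT4 or KO4 with at most adjusted p = 0.0555).

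Outside the lists, Ackr3 and Dscaml1 were among the 8 largest rises of genes with a mean of at least 10 CPM. Ackr3, a scavenger receptor of CXCL12, stood at 102, 18.9, 23.2 and 30.4 CPM against 0, 1.10, 0 and 0.457 CPM (log2 fold change 6.71, SE 0.86, adjusted p = 0.00688). Dscaml1, a cell adhesion gene, stood at 90.4, 21.1, 27.1 and 28.4 CPM against 0, 1.72, 0 and 0 CPM (log2 fold change 6.69, SE 0.93, adjusted p = 0.00751). Both were highest in WT1 and did not overlap between the sets.

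The largest falls were smaller in size than the largest rises. Tcf7, a factor of Wnt signalling, stood at 1.77, 0.615, 3.56 and 6.14 CPM against 15.8, 10.2, 21.3 and 29.9 CPM (log2 fold change -2.86, SE 0.41, adjusted p = 0.00767). Pou3f1 (chr4:124657646-124660655), a POU factor gene of neural progenitors, stood at 59.9, 77.2, 90.2 and 92.9 CPM against 341, 272, 341 and 388 CPM (log2 fold change -2.08, SE 0.16, adjusted p = 0.00178). Neurl1a, a ubiquitin ligase gene, stood at 19.6, 42.9, 45.7 and 40.0 CPM against 102, 173, 147 and 255 CPM (log2 fold change -2.18, SE 0.31, adjusted p = 0.00751). The 3 genes did not overlap between the sets, and Pou3f1 lay between 59.9 and 92.9 CPM on one side and between 272 and 388 CPM on the other. Gper1 (-2.17, SE 0.37, adjusted p = 0.00915), Abcb9 (-2.14, SE 0.45, adjusted p = 0.0146) and N4bp3 (-2.10, SE 0.35, adjusted p = 0.009) also fell, and so did Esx1 (-2.29, SE 0.58, adjusted p = 0.0245, with the block adjusted p = 0.0614, lost without WT2, WT3, WT4 or KO4 with at most adjusted p = 0.0713).

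The footprint libraries give a second readout of the same lysates, in which the replicate set is also the length of the molecular identifier (5 nt in replicates 1-2 and 8 nt in replicates 3-4). Of 11472 genes tested there, 1318 were higher in replicates 1-2 (11.5%) and 867 lower (7.56%). Of the 1440 genes higher in RNA that were tested in footprints, 736 were higher and none lower. Of the 1325 lower in RNA, 448 were lower and none higher. Across the 10863 genes tested in both, the log2 fold changes had a Spearman correlation of 0.736, and genes are not independent replicates.

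The log2 fold changes of footprints of Fos (6.74, adjusted p = 0.0213), Gfap (4.07, adjusted p = 0.0123), Apoe (5.42, adjusted p = 0.0123), Rb1 (1.27, adjusted p = 0.0101) and Pou3f1 (-1.64, adjusted p = 0.00969) had the same sign as those of RNA. Of the astrocyte list 16 of 22 were higher in footprints, of immediate early genes 20 of 38, and of ribosomal protein genes 50 of 79 were lower. Of 47 histone genes tested in footprints 1 was lower, and of 47 replication genes 4 were. In footprints Hist1h1e had a log2 fold change of -0.63, adjusted p = 0.109, and Mcm5 of -0.88, adjusted p = 0.115. Gad1, which rose in RNA, had one of -0.06, adjusted p = 0.952. Whether footprints and RNA differ for these genes was not tested.

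**Figure D4:**
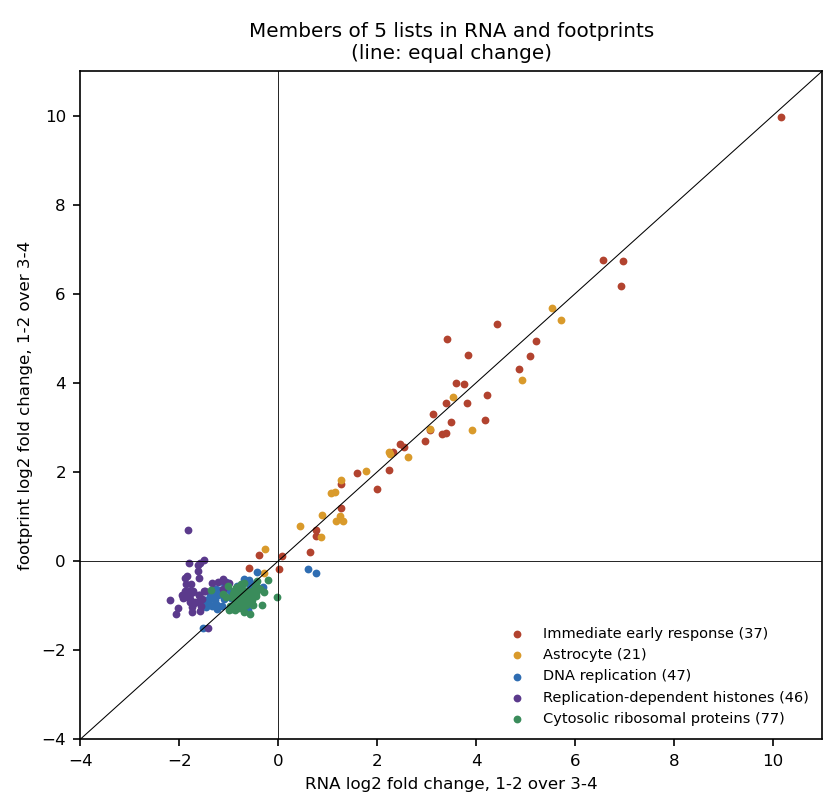
Log2 fold change (replicates 1-2 over replicates 3-4) in RNA (x axis) and footprints (y axis) for members of 5 lists tested in both; the diagonal marks equal change. Immediate early and astrocyte genes lie along the diagonal, while most histone genes lie above it, such as Hist1h1e at -1.12 in RNA and -0.63 in footprints.

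Differences between the sets also followed transcript length. Relative length was read from the ratio of deposited counts to deposited TPM for 10196 of the 11097 genes. In 4 classes of equal size from the shortest to the longest, the median log2 fold change was -0.33, -0.09, 0.06 and 0.35, the share of genes called higher was 3.65%, 8.75%, 13.5% and 26.8%, and the share called lower was 20.3%, 15.1%, 11.2% and 5.53%. In footprints the medians were -0.15, -0.10, 0.02 and 0.17. Without replicate 1 of both genotypes the RNA medians were -0.42, -0.17, 0.01 and 0.33. Across genes, the Spearman correlation with relative length was 0.337 in RNA and 0.222 in footprints.

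All 57 histone genes and 70 of 77 ribosomal protein genes were in the shortest class. Taken against the median of each gene's own length class, the median difference was -1.38 for histones, -0.37 for ribosomal proteins, -1.04 for DNA replication, 3.34 for immediate early genes, 1.36 for astrocyte genes and 0.95 for hypoxia genes. It was 0.51 for matrix proteases and inhibitors, 0.34 for synaptic genes and -0.27 for collagens, laminins and nidogens. Before that step, collagens, laminins and nidogens with a length had a median of 0.09. Among G2 and mitosis genes, 13 of the 16 with a length that rose without replicate 1 were in the longest class, against 1 of the 11 that fell, and over 51 members the Spearman correlation with length was 0.617. Cenpf and Smc4 had 7.70 and 3.21 times the median relative length. The part of length in these results was not tested.

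**Figure D5:**
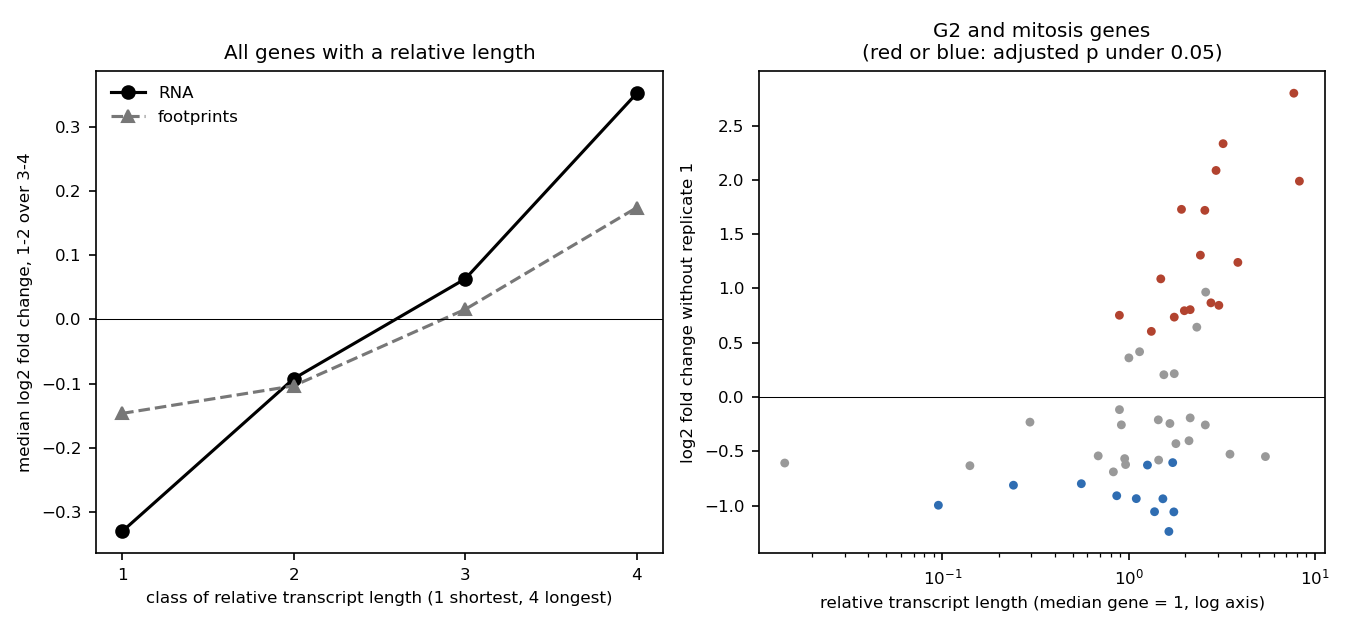
Left, median log2 fold change in 4 classes of relative transcript length (class 1 shortest, class 4 longest) for RNA (circles) and footprints (triangles). Right, each G2 and mitosis gene by relative length (log axis, median gene at 1) and its log2 fold change without replicate 1 of both genotypes, in red or blue where the adjusted p was under 0.05; the genes that rose lie mostly at the longer lengths.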

How the data were processed

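Cultured adult neural stem cells were profiled by RNA sequencing and ribosome footprinting in 4 WT and 4 KO cultures, described by the labels as independently isolated. The authors deposited a table of estimated counts per gene symbol, in whole numbers. The TPM table the authors deposited holds whole numbers too and was handled as a score because of that rounding. Per the submitters' processing notes, the tools were RSEM 1.2.11, TopHat2 2.0.9 and Bowtie2 2.1.0, with bedtools 2.22.0, SAMtools 0.0.19 and cutadapt 1.7.1, and the build was mm10. Per the labels' protocols, RNA libraries were made with the NuGEN Ovation V2 amplification kit. The sources used here do not give strand use or read collapsing for RNA, so overlapping and antisense genes cannot be separated.

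Rows named by a bare number (27 of 20436, with 0.244% to 0.332% of RNA counts) were dropped, which left 20409 genes. Symbols matched the RefSeq GRCm38.p6 table for 19269 of them. The main test was the two-sided quasi-likelihood test of edgeR 4.0.16, run in R 4.3.3 with genotype and replicate set, TMM scaling, filterByExpr by set and Benjamini-Hochberg adjustment at 0.05. The code was tested on simulated counts. CPM values are scaled by TMM. Positive log2 fold changes are higher in replicates 1-2. A fixed block cannot be fitted because the numbers are nested in the sets, so a random block was fitted with limma 3.58.1 (voom, correlation 0.264). Deviations of same-numbered WT and KO libraries from their group means correlated at 0.548, 0.613, 0.481 and 0.501. These group means span both sets, so the deviations include the set difference. Within the sets the correlations were weaker, at 0.334 for WT1-WT2 against KO1-KO2 and 0.171 for WT3-WT4 against KO3-KO4.

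Named genes were Fmr1, the 8 largest rises and the 8 largest falls among called genes whose mean reached 10 CPM, and up to 4 members per list (the 2 most abundant where none passed). Other members were named after their values were seen, and some genes that the rule names are not reported here. Members and the 30 lists were chosen with earlier results of these data known. Alternatives were RLE scaling, library totals, DESeq2 1.42.0, limma-voom, other filters, no genotype term, each genotype alone, limma-trend on log2(TPM + 1), and leaving out each library. Leaving out both libraries of a number, transcript length and the nucleolar list were added after seeing the data. Figures were drawn with matplotlib 3.10.9 and motifs counted by gene with Python 3.11.15.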

Additional observations from a re-analysis of the deposited data

Results flagged for a closer look

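Within each set of 4 libraries, 22 of 280 groups of values had a highest or lowest library whose gap to the nearest value was above Dixon's 95% limit for 4 values, and chance flags about 1 in 20. WT1 was the low library for the mean log2(CPM + 1) of DNA replication genes, at 4.60 against 5.83 to 6.06 in WT2, KO1 and KO2. WT2 was high for the BMP pathway list at 4.54, and WT3 was high for actin, YAP and SRF targets at 6.50 and for p53 targets at 5.56.

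WT1 was the high library of replicates 1-2 for Ackr3 (101.7 CPM), Adamts4 (220.4 CPM), Amotl2 (168.9 CPM), Btg2 (114.7 CPM), Dscaml1 (90.4 CPM), Gad1 (34.4 CPM), H2-D1 (132.4 CPM), Prox1 (222.0 CPM), Sox2 (310.3 CPM) and Sox4 (816.3 CPM), and the low library for the chaperone gene Sdf2l1 (7.27 CPM). WT2 was high for Id2 (23.4 CPM).

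In replicates 3-4, WT4 was high for Dscaml1 (1.72 CPM, with the other 3 at 0), KO3 for Flt1 (14.3 CPM) and Foxc1 (62.8 CPM), and KO4 for Lamb3 (28.6 CPM). WT3 was low for Bnip3 (3.30 CPM) and KO3 was low for Lhfpl3 (0 CPM).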

How the results depend on the processing

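The counts of genes higher and lower in replicates 1-2 (1457 and 1339) stayed within 1.5 times under RLE scaling, library totals, DESeq2 (2068 and 1720), limma-voom, both other filters and no genotype term. On log2(TPM + 1), where the median of all genes moved by 0.235, limma-trend called 2143 higher and 683 lower, so 75.8% of calls were higher against 52.1%. The replicate block left 713 and 612 as a random term and 0 and 0 when the counts of a pair were summed. WT libraries alone gave 0 and 0, and KO libraries alone 1 and 0, from fewer samples. Leaving out 1 library gave 608 to 1544 higher and 483 to 1311 lower, with the fewest without WT4, and counts also moved by more than 1.5 times without KO2 (722 and 558), WT3 (722 and 607), KO4 (865 and 651) or, for lower genes, WT2 (849). Leaving out a pair gave 1766 and 1446 without replicate 1, 558 and 137 without replicate 2, 383 and 240 without replicate 3 and 4 and 1 without replicate 4, and which property of the libraries sets this was not tested.

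Among named genes, 2 that had not passed changed sign. Acta2 (0.25) was at -0.35 in WT alone, -0.32 (without KO2) to 0.74 (without WT4) with 1 library left out and below 0 also without KO3 (-0.22), -0.82 without replicate 2 and -0.48 without replicate 3. Foxc1 (-0.10) was at 0.16 in WT alone, 0.17 on the TPM scale, -0.25 (without WT1) to 0.20 (without KO3) with 1 library left out and above 0 also without KO2 (0.016), 0.11 without replicate 2 and 0.26 without replicate 3. The cause was not tested. The filter on low counts left 733 of 900 listed genes testable.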
